A study of Homo sapiens with 15 samples.

Results

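The 37 genes described here are named direct transcriptional targets of the tumour suppressor p53, taken from a list of gene symbols and followed through 2 human gastric cancer lines. The rule used no measured value, but the list was chosen with earlier results of these data known, so its counts are a description. The members were matched by symbol in each count table. The NCI-N87 table held 35 of the 37 among 18473 genes and the SNU-484 table held 35 among 18346, with 34 in both. CMBL in NCI-N87, TRIM22 in SNU-484 and TSPAN11 in both lines were not analysed here. All 35 members of each table passed the filter on low counts.

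RNA was sequenced from 15 cultures in 5 groups of 3, which the labels call biological replicates. NCI-N87 is an established line with amplified ERBB2, the gene of the receptor HER2, and SNU-484 is an established line that the study classes as HER2-low. NCI-N87 was exposed to vehicle (an acetate buffer with sorbitol), to trastuzumab or to T-DXd, and SNU-484 to vehicle or T-DXd only. Both agents were used at 1 µg/ml, and all cultures were harvested after 72 h. The antibody trastuzumab binds HER2, and trastuzumab deruxtecan (T-DXd) is that antibody joined to an inhibitor of DNA topoisomerase I, an enzyme that nicks and reseals DNA. The labels give every culture the genotype WT and the same growth medium. The control libraries of SNU-484 are labelled vehicle, while their column names carry the letters iso. SNU-484 had no trastuzumab group, so the part of the antibody and the part of the payload cannot be told apart in that line.

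p53 is a transcription factor that is kept low by the ubiquitin ligase MDM2 and is stabilised by kinases of the DNA damage response. Bound to its sites it raises genes that stop the cell cycle, repair DNA, open the way to apoptosis, tune metabolism and, through MDM2, PPM1D and CCNG1, limit p53 itself. Its activity is set mainly by protein level and modification, which transcript counts do not measure. Many members also answer to other factors, such as p63 and p73, E2F, NF-kB or the stress factor ATF4, so a member that moved is not by itself a readout of p53.

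Total counts ran from 47990460 to 64623697 per library in NCI-N87, and SNU-484 libraries held 46666533 to 66581448. Members took 0.191% to 0.235% of the counts in NCI-N87 and 0.153% to 0.163% in SNU-484. Trastuzumab replicate 2 and SNU-484 T-DXd replicate 3 stood apart from the other libraries of their groups. The mean chi-square per gene between library pairs was 44.5 and 43.5 for the former and 46.1 and 29.8 for the latter, against 3.52 to 13.7 for all other pairs. Gastric epithelial markers were high in NCI-N87, where 6 of 7 were in the table with a summed level of 9409 to 9467 counts per 1000000 (CPM) with vehicle. In SNU-484, 4 of the 7 were in the table with a summed level of only 8.77 to 10.5 CPM with vehicle and 13.2 to 15.4 with T-DXd. Fibroblast and endothelial markers summed to 1379 to 1493 CPM in SNU-484 with vehicle and 1538 to 1808 with T-DXd, of which the collagen gene COL3A1 was the largest share. Leukocyte markers summed to 115.5 to 128.0 CPM with vehicle and 73.8 to 101.6 with T-DXd, nearly all from PTPRC, which encodes CD45. In these markers SNU-484 was unlike an epithelial line, although its label is gastric adenocarcinoma, an epithelial tumour. What the markers mean for the identity of the line was not tested, and it is called SNU-484 here by its label only. In NCI-N87 the summed epithelial markers were 11370 to 11640 CPM with T-DXd and 8840 to 9075 with trastuzumab, and the fibroblast and endothelial markers were 2.22 to 2.54 with vehicle and 7.88 to 9.99 with T-DXd. What part these markers have in the values of the members was not tested. In such bulk RNA, fewer cells of a type and less RNA per cell cannot be told apart.

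Sequences resembling the p53 site are shown for the members on which the results turn, since binding of p53 to such sites is the basis of the list. The p53 site consists of 2 adjacent repeats of 10 bases, each with a core that starts with C and ends with G, and it reads the same on both strands. A window of 5000 bases on each side of a single transcript start per gene (GRCh38.p14) was searched for the consensus without a spacer. Each line gives the best match of 20 bases from 5′ to 3′ on the strand of the gene, with the 4-base core of each repeat in capitals.
PLK2: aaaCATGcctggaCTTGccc
ZMAT3: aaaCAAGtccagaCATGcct
PERP: aggCAAGctccagCTTGttc
CDKN1A: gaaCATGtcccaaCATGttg
GDF15: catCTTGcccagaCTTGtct
MDM2: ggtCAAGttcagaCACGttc
FAS: ggaCAAGccctgaCAAGcca
BAX: gggCAGGcccgggCTTGtcg
BTG2: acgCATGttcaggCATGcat
ACER2: gaaCCTGccgggaCAAGtct
The matches of PLK2 (chr5:58462274-58462293, minus strand, 2198 bases before the start and outside the gene) and ZMAT3 (chr3:179070188-179070207, minus strand, intronic) had 0 mismatches to the consensus, and that of PERP (chr6:138104070-138104089, minus strand, intronic) had 1. The other 7 had 2 mismatches each and lay on the plus strand. That of CDKN1A was at chr6:36676449-36676468, 2256 bases before the start used and exonic in another transcript of GENCODE v44, and that of GDF15 was at chr19:18385308-18385327, 841 bases before the start and intronic. The matches of MDM2 (chr12:68808923-68808942) and ACER2 (chr9:19409522-19409541) were intronic, those of FAS (chr10:88991309-88991328) and BAX (chr19:48955213-48955232) exonic, and that of BTG2 (chr1:203303642-203303661) outside the gene. Of 29 members whose start was in the table, 14 (48.3%) had a match with up to 2 mismatches, beside 7.7% of 15842 protein-coding genes, and 5 (17.2%) had one with up to 1 mismatch, beside 1.1%. TNFRSF10A, TNFRSF10B, RRM2B, PHLDA3, TP53INP1, GADD45A, CMBL and TRIM22 were not searched. A match is a run of letters and not a measured binding event.

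T-DXd changed most of the p53 target genes of NCI-N87, and mainly upward. Of 35 members, 23 (65.7%) were higher with T-DXd than with vehicle, 8 (22.9%) were lower and 4 did not pass the test (edgeR quasi-likelihood test, Benjamini-Hochberg adjusted p under 0.05). Over all 17394 genes tested, 29.1% were called higher and 29.5% lower. Groups of libraries did not overlap in 63.4% of all genes for T-DXd against vehicle and in 62.1% against trastuzumab. For trastuzumab against vehicle the share was 28.3%. Lack of overlap is thus common among all genes and is not particular to the members. The median log2 fold change of the members was 0.23, against -0.01 over all genes. Most changes were small, and only 2 members, CDKN1A and TRIM22, rose by more than 2-fold. The members are more abundant than the average gene, with a median of 4.89 log2 CPM against 4.09 for all genes, and small changes of abundant genes pass the test more readily.

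**Figure D1:**
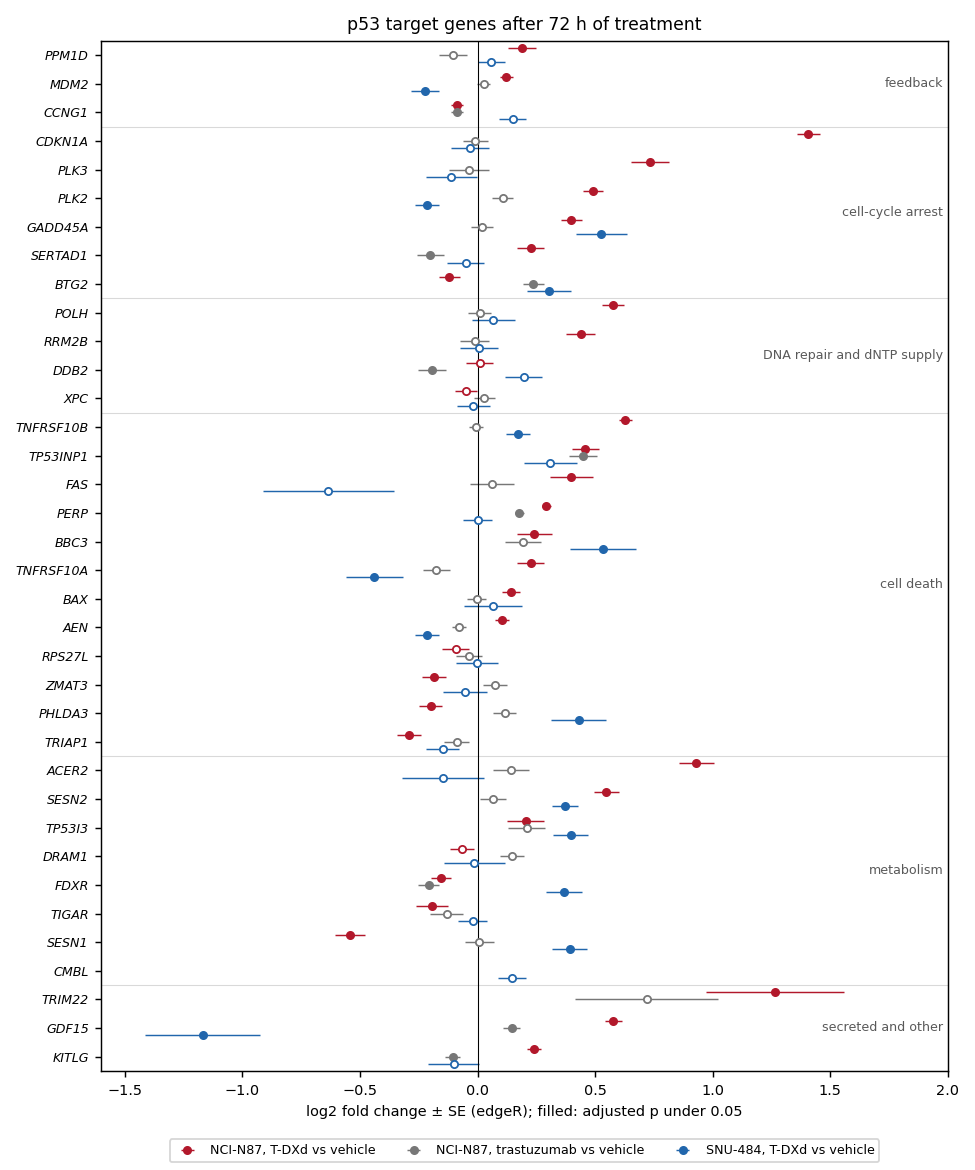
Log2 fold change ± SE (edgeR) of each p53 target gene for T-DXd against vehicle in NCI-N87 (red), trastuzumab against vehicle in NCI-N87 (grey) and T-DXd against vehicle in SNU-484 (blue), grouped by role, with filled points for an adjusted p under 0.05. CDKN1A stands at 1.41 in NCI-N87 and at -0.03 in SNU-484, and GDF15 at 0.58 and -1.17.

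Of the 6 members grouped under cell-cycle arrest, 5 rose and 1 fell with T-DXd in NCI-N87, against 29.1% and 29.5% of all genes. The same shares of all genes apply to the T-DXd counts of the other role groups in this line. CDKN1A (chr6:36676463-36687332) encodes p21, the inhibitor of cyclin-dependent kinases through which p53 arrests cells in G1. Its level was 35.5, 32.5 and 34.4 CPM in the vehicle libraries, 34.3, 30.5 and 36.6 with trastuzumab, and 88.8, 92.0 and 90.9 with T-DXd. All 3 T-DXd libraries lay far above the other 6, which overlapped one another. The rise with T-DXd was 2.65-fold, a log2 fold change of 1.41 ± 0.05 (SE, n = 3 per group, edgeR adjusted p = 6.86e-13), while that with trastuzumab was -0.01 ± 0.05 (adjusted p = 0.937).

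PLK3 and PLK2 encode polo-like kinases of the stress response. PLK3 (chr1:44800377-44805990) read 9.24, 10.0 and 8.10 CPM with vehicle, 8.92, 9.03 and 8.70 with trastuzumab and 14.1, 15.7 and 15.6 with T-DXd. The T-DXd libraries did not overlap the others, and the log2 fold change against vehicle was 0.73 ± 0.08 (edgeR adjusted p = 6.09e-07). PLK2 rose by 0.49 ± 0.04. GADD45A, a damage-induced inhibitor of the G2 to M transition, rose from 33.2 to 35.6 CPM with vehicle to 43.4 to 47.4 with T-DXd, or 0.40 ± 0.04 on the log2 scale. SERTAD1, a regulator of E2F and CDK4, rose by 0.23 ± 0.06. BTG2, an antiproliferative factor, went the other way, at 26.4 to 28.1 CPM with vehicle and 24.8 to 25.8 with T-DXd, a log2 fold change of -0.12 ± 0.05 (edgeR adjusted p = 0.0295).

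**Figure D2:**
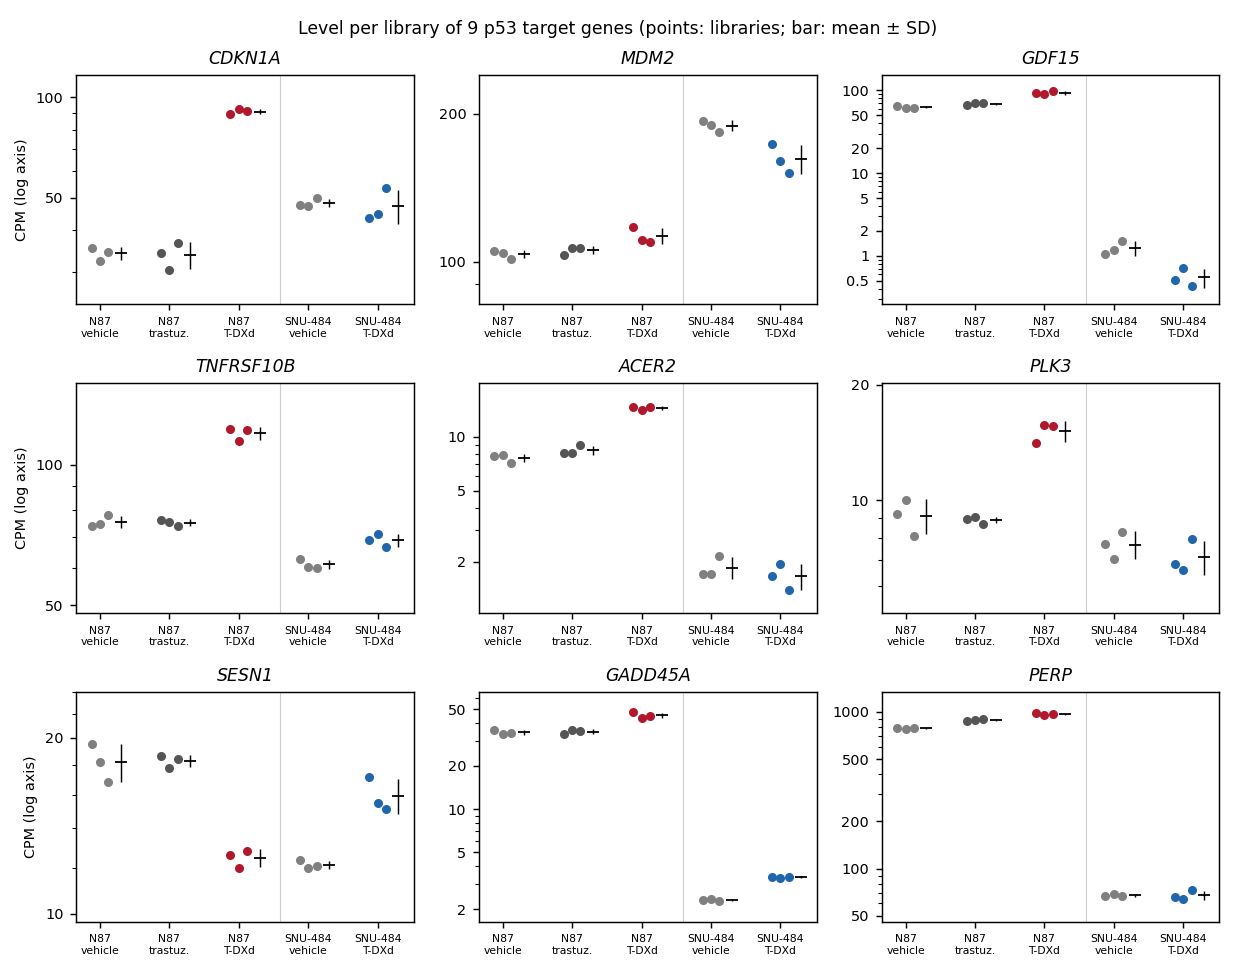
Level of 9 p53 target genes in each library, in CPM on a log axis, by line and treatment, with the mean ± SD of the 3 libraries beside the points. The T-DXd libraries of CDKN1A in NCI-N87 sit between 88.8 and 92.0 CPM, above all vehicle and trastuzumab libraries of that line, while GDF15 in SNU-484 lies between 0.429 and 1.53 CPM.

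The 3 feedback members changed little with T-DXd in NCI-N87. MDM2 was at 105.4, 104.3 and 101.6 CPM with vehicle, 103.3, 106.9 and 106.7 with trastuzumab, and 118.0, 110.9 and 109.9 with T-DXd. Its T-DXd libraries lay just above the others, by 0.12 ± 0.03 on the log2 scale (edgeR adjusted p = 0.00126). PPM1D, the phosphatase that switches off the damage kinases and p53, rose by 0.19 ± 0.06, and CCNG1, a cyclin that recruits a phosphatase to MDM2, was lower by a log2 fold change of -0.09 ± 0.03. The group counted 2 higher and 1 lower.

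Of 12 genes of cell death, 8 rose and 3 fell with T-DXd in NCI-N87. The death receptor gene TNFRSF10B, which encodes DR5, read 74.0, 74.6 and 78.0 CPM with vehicle, 76.2, 75.4 and 73.8 with trastuzumab, and 119.1, 112.5 and 118.7 with T-DXd. Its T-DXd libraries were clearly set apart, with a log2 fold change of 0.63 ± 0.03 (edgeR adjusted p = 1.54e-11). The related receptor gene TNFRSF10A rose by 0.23 ± 0.06. FAS, the receptor for the FAS ligand, read 8.42, 7.69 and 8.13 CPM with vehicle, 8.48, 7.55 and 9.21 with trastuzumab and 10.9, 9.64 and 11.5 with T-DXd. The T-DXd libraries of FAS lay above the rest, with a rise of 0.40 ± 0.09 (edgeR adjusted p = 0.00115).

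The mitochondrial death genes moved less. BBC3, which encodes the BH3-only protein PUMA, was at 14.5, 13.1 and 14.6 CPM with vehicle, 14.99, 15.74 and 17.41 with trastuzumab and 15.2, 16.5 and 18.2 with T-DXd. Both antibody groups lay above vehicle and overlapped each other, and only the difference between T-DXd and vehicle passed the test (0.24 ± 0.08, edgeR adjusted p = 0.0115). BAX, the pore former of the outer mitochondrial membrane, read 55.2, 51.1 and 53.2 CPM with vehicle, 54.3, 51.9 and 52.8 with trastuzumab and 59.6, 56.0 and 60.6 with T-DXd, a rise of 0.14 ± 0.04 (adjusted p = 0.0037). TP53INP1, a stress protein that promotes phosphorylation of p53, rose by 0.46 ± 0.06 and the nuclease gene AEN by 0.10 ± 0.03.

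PERP, a membrane protein of desmosomes with a role in p53-dependent death, was the most abundant member of the line. It read 786.6, 779.4 and 793.0 CPM with vehicle, 876.9, 892.7 and 899.4 with trastuzumab, and 978.5, 949.1 and 962.6 with T-DXd. The 3 groups did not overlap and followed that order, with log2 fold changes against vehicle of 0.18 ± 0.02 for trastuzumab and 0.29 ± 0.02 for T-DXd (edgeR adjusted p = 8.7e-05 and 2.44e-09), which share the vehicle libraries. The summed epithelial markers followed another order, with trastuzumab below vehicle and T-DXd above it. TRIAP1, an apoptosis inhibitor (-0.29 ± 0.05), PHLDA3, an inhibitor of AKT (-0.20 ± 0.05), and ZMAT3, an RNA-binding protein (-0.19 ± 0.05), were lower with T-DXd. RPS27L, a ribosomal protein with a close paralog that can share reads, read 37.5, 32.7 and 36.4 CPM with vehicle, 33.4, 36.8 and 33.9 with trastuzumab and 32.6, 35.6 and 31.9 with T-DXd. Its groups overlapped, and its difference between T-DXd and vehicle did not pass the test (-0.09 ± 0.06, edgeR adjusted p = 0.165).

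Among the repair genes, POLH and RRM2B rose and XPC and DDB2 did not pass the test. POLH, the polymerase that copies past bulky lesions, was at 28.3 to 30.4 CPM with vehicle and 41.2 to 46.6 with T-DXd, a rise of 0.58 ± 0.05 (edgeR adjusted p = 1.94e-08). RRM2B, the p53-dependent subunit of ribonucleotide reductase, rose by 0.44 ± 0.06. The damage sensors of nucleotide excision repair were at -0.05 ± 0.04 for XPC and 0.01 ± 0.06 for DDB2.

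The metabolic members split, 3 higher and 3 lower of 7. ACER2 (chr9:19409009-19452505), an alkaline ceramidase, read 7.83, 7.89 and 7.12 CPM with vehicle, 8.10, 8.09 and 8.98 with trastuzumab and 14.7, 14.2 and 14.7 with T-DXd. The T-DXd libraries were clear of the others, a 1.91-fold rise (log2 fold change 0.93 ± 0.07, edgeR adjusted p = 1.2e-08). The sestrins, which dampen mTORC1 signalling, moved apart. SESN2 was at 16.5 to 18.2 CPM with vehicle and 24.1 to 26.3 with T-DXd, a rise of 0.55 ± 0.05. SESN1 read 19.5, 18.2 and 16.8 CPM with vehicle, 18.6, 17.8 and 18.4 with trastuzumab and 12.60, 11.97 and 12.82 with T-DXd. Its T-DXd libraries were the lowest, with a log2 fold change of -0.54 ± 0.06 (edgeR adjusted p = 1.17e-06), the largest fall among the members of this comparison. TP53I3, a quinone reductase, was higher by 0.20 ± 0.08. FDXR, the ferredoxin reductase of mitochondria (-0.16 ± 0.04), and TIGAR, which slows glycolysis (-0.19 ± 0.07), were lower, and the autophagy gene DRAM1 did not pass the test (-0.07 ± 0.05).

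All 3 members with secreted or other products rose with T-DXd in NCI-N87. GDF15 (chr19:18386158-18389176), a secreted stress cytokine that acts on the hindbrain to reduce appetite, read 64.5, 61.5 and 62.2 CPM with vehicle, 67.2, 70.9 and 70.1 with trastuzumab, and 92.4, 89.8 and 98.7 with T-DXd. The groups did not overlap, with a log2 fold change of 0.58 ± 0.04 for T-DXd (edgeR adjusted p = 4.16e-10). KITLG, the ligand of the KIT receptor, rose by 0.24 ± 0.03. TRIM22 (chr11:5689790-5710863), a ubiquitin ligase that is also induced by interferon, had 37, 15 and 20 counts with vehicle, 32, 29 and 55 with trastuzumab and 49, 65 and 68 with T-DXd. At this low level its log2 fold change of 1.26 ± 0.29 (edgeR adjusted p = 0.00136) had the widest error of the members.

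Over the whole list, T-DXd calls in NCI-N87 numbered 20 to 23 higher and 6 to 8 lower when any of the 9 libraries was left out. TP53I3 passed only with all vehicle and T-DXd libraries present (adjusted p up to 0.111 without any of these 6). The calls of BTG2 (without vehicle replicate 1 or 3 or T-DXd replicate 2 or 3, up to 0.106), TIGAR (without vehicle replicate 2 or T-DXd replicate 2 or 3, up to 0.103), BBC3 (without vehicle replicate 2 or T-DXd replicate 3, up to 0.0765) and PPM1D (without vehicle replicate 2, 0.0503) were lost as well.

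With trastuzumab alone most members did not pass the test. Of 35, 4 (11.4%) were higher and 5 (14.3%) lower than with vehicle, against 3.65% and 6.09% of all genes, and the median log2 fold change was 0.01. TP53INP1 read 17.9, 19.4 and 20.0 CPM with vehicle and 23.9, 27.0 and 27.2 with trastuzumab, close to the 27.1, 25.8 and 25.8 with T-DXd. Its antibody libraries all lay above vehicle, and the rise with trastuzumab was 0.45 ± 0.06 (edgeR adjusted p = 0.000212). BTG2 was higher with trastuzumab, at 33.5, 32.3 and 31.2 CPM against 28.1, 26.4 and 27.8 with vehicle (0.24 ± 0.04, adjusted p = 0.0034), and lower with T-DXd. PERP and GDF15 (0.15 ± 0.04, adjusted p = 0.0163) were the other members that rose.

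The 5 members that were lower with trastuzumab were FDXR (-0.21 ± 0.04), SERTAD1 (-0.20 ± 0.06), DDB2 (-0.19 ± 0.06), KITLG (-0.11 ± 0.03) and CCNG1 (-0.09 ± 0.03). Without trastuzumab replicate 2, the library that stood apart, GDF15, DDB2, CCNG1, SERTAD1 and KITLG lost their calls, leaving 3 higher and 1 lower. TP53INP1, PERP, BTG2 and FDXR passed whichever library was left out. The number lower was also 1 without vehicle replicate 3 or trastuzumab replicate 1, and 2 without vehicle replicate 1 or 2 or trastuzumab replicate 3.

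Set directly against trastuzumab, which carries the same antibody without the payload, T-DXd raised 20 members (57.1%) and lowered 6 (17.1%) of 35, with a median of 0.18. Of all genes, 28.3% were higher and 29.4% lower in that comparison. The rises were 1.42 ± 0.05 for CDKN1A, 0.79 ± 0.07 for ACER2, 0.77 ± 0.08 for PLK3, 0.64 ± 0.03 for TNFRSF10B and 0.57 ± 0.05 for POLH (edgeR adjusted p at most 4.16e-07). TNFRSF10A (0.40 ± 0.06) and SERTAD1 (0.43 ± 0.06) were higher than with trastuzumab, beside 0.23 ± 0.06 for each against vehicle. SESN1 (-0.55 ± 0.06), BTG2 (-0.36 ± 0.04), PHLDA3 (-0.31 ± 0.05), ZMAT3 (-0.26 ± 0.05), DRAM1 (-0.22 ± 0.05) and TRIAP1 (-0.20 ± 0.05) were the 6 lower members. TP53INP1 (0.01 ± 0.06), BBC3 (0.05 ± 0.08) and TP53I3 (0.00 ± 0.08) differed by less than their errors between both antibody groups.

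In SNU-484 the list was divided. With T-DXd, 9 of 35 members (25.7%) were higher, 5 (14.3%) were lower and 21 did not pass the test, against 11.2% and 9.65% of the 16876 genes tested. The median log2 fold change was 0.00 for the members and 0.00 for all genes. The T-DXd and vehicle libraries of this line did not overlap in 41.1% of all genes. The higher members were BBC3, GADD45A, PHLDA3, TP53I3, SESN1, SESN2, FDXR, BTG2 and TNFRSF10B, and the lower ones were GDF15, TNFRSF10A, MDM2, PLK2 and AEN.

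CDKN1A did not respond in SNU-484 beyond the spread of its libraries. It read 47.59, 47.41 and 50.02 CPM with vehicle and 43.6, 44.9 and 53.6 with T-DXd. The T-DXd libraries fell on both sides of vehicle, the highest being replicate 3, with a log2 fold change of -0.03 ± 0.08 (edgeR adjusted p = 0.813). PLK3 (-0.11 ± 0.11), SERTAD1 (-0.05 ± 0.08) and PPM1D (0.06 ± 0.06) did not pass the test either. MDM2 was lower, at 193.3, 189.5 and 183.9 CPM with vehicle and 173.2, 160.5 and 151.5 with T-DXd, without overlap (-0.22 ± 0.06, adjusted p = 0.0324). PLK2 was lower by a like amount (-0.22 ± 0.05).

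GDF15 was barely expressed in SNU-484, with 60, 74 and 96 counts with vehicle and 35, 43 and 20 with T-DXd. The T-DXd libraries were all lower, and the log2 fold change was -1.17 ± 0.24 (edgeR adjusted p = 0.0117), opposite in sign to NCI-N87. FAS was lower still in level, with 33, 29 and 44 counts against 28, 26 and 12, and its difference did not pass the test (-0.63 ± 0.28, adjusted p = 0.14). TNFRSF10A fell (-0.44 ± 0.12) while TNFRSF10B rose from 60.2 to 62.7 CPM to 66.6 to 71.1 CPM (0.17 ± 0.05, adjusted p = 0.0465).

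Of the mitochondrial death genes, BBC3 read 8.26, 8.40 and 8.59 CPM with vehicle and 10.7, 10.7 and 15.3 with T-DXd. All T-DXd libraries were higher, replicate 3 by far the most (0.54 ± 0.14, edgeR adjusted p = 0.0286). BAX read 60.2, 65.8 and 64.1 CPM with vehicle and 55.0, 63.5 and 80.9 with T-DXd, and the groups overlapped (0.07 ± 0.12). PERP was at 67.1, 69.5 and 66.8 CPM with vehicle and 66.0, 64.5 and 73.0 with T-DXd (0.00 ± 0.06), and RPS27L at 39.0, 41.0 and 40.0 CPM with vehicle and 36.0, 37.8 and 46.3 with T-DXd (0.00 ± 0.09). In each of these genes replicate 3 was the highest T-DXd library.

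The metabolic members were the group with the most rises in SNU-484, 4 of 8, with none lower, against 11.2% and 9.65% of all genes. SESN1 rose from 12.35, 11.98 and 12.05 CPM with vehicle to 17.1, 15.5 and 15.1 with T-DXd (0.39 ± 0.07, edgeR adjusted p = 0.00836), where in NCI-N87 it fell. SESN2 rose by 0.37 ± 0.06, TP53I3 by 0.40 ± 0.07 and FDXR by 0.37 ± 0.08. GADD45A rose from 2.32, 2.36 and 2.28 CPM to 3.38, 3.29 and 3.37 (0.53 ± 0.11, adjusted p = 0.0115). PHLDA3 (0.43 ± 0.12) and BTG2 (0.30 ± 0.09) rose as well. None of the 4 repair genes passed the test, with log2 fold changes between -0.02 for XPC and 0.20 for DDB2.

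These calls rested on few libraries. Without SNU-484 T-DXd replicate 3, which stood apart, 11 members were higher and 5 lower. Without vehicle replicate 1, 2 or 3 only 4 were called higher in each case, and 1, 1 and 0 lower, while 2 were called lower without T-DXd replicate 2. SESN1, SESN2 and TP53I3 passed whichever library was left out, and GDF15 and GADD45A lost their calls only without vehicle replicate 3 (adjusted p = 0.0518 and 0.0513). FDXR lost its call without vehicle replicate 1 or 2 (edgeR adjusted p up to 0.0531).

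The effect of T-DXd was then compared between the lines in a joint fit of 34 members among 14785 genes, as the change in NCI-N87 minus the change in SNU-484. The difference passed the test in 20 members, of which 15 (44.1%) had the higher effect in NCI-N87 and 5 (14.7%) the lower, against 22.3% and 19.3% of all genes. GDF15 differed by 1.77 ± 0.19, CDKN1A by 1.46 ± 0.09, ACER2 by 1.10 ± 0.17, FAS by 1.05 ± 0.25 and PLK3 by 0.87 ± 0.14 on the log2 scale (edgeR adjusted p at most 0.00452). On the other side stood SESN1 (-0.91 ± 0.10), PHLDA3 (-0.61 ± 0.14), FDXR (-0.50 ± 0.09), BTG2 (-0.40 ± 0.09) and CCNG1 (-0.21 ± 0.06). Dose and time were the same in both lines, while level of HER2, genetic background and any batch differ with the line and cannot be told apart.

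Counted side by side, 5 of the 34 shared members were called higher in both lines, namely BBC3, TNFRSF10B, SESN2, TP53I3 and GADD45A. Another 5 were called higher in NCI-N87 and lower in SNU-484 (MDM2, GDF15, TNFRSF10A, PLK2 and AEN), and 4 were called lower in NCI-N87 and higher in SNU-484 (SESN1, PHLDA3, FDXR and BTG2). No member was called lower in both. Of the 14303 genes tested in both lines, 4.74% were called higher in both, 2.57% higher and then lower, 2.64% lower and then higher, and 4.72% lower in both. Without SNU-484 vehicle replicate 1 or 2 the members' counts of 5, 5 and 4 became 3, 1 and 1, and without vehicle replicate 3 they became 2, 0 and 2. XPC, DDB2, RPS27L and DRAM1 were called in neither line. The interaction itself did not pass for BBC3 (-0.27 ± 0.17), SESN2 (0.20 ± 0.08), TP53I3 (-0.17 ± 0.10) and GADD45A (-0.10 ± 0.09). That of SESN2 was near the threshold (edgeR adjusted p = 0.0518) and passed it with DESeq2, with other filters and without each of 3 single libraries.

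**Figure D3:**
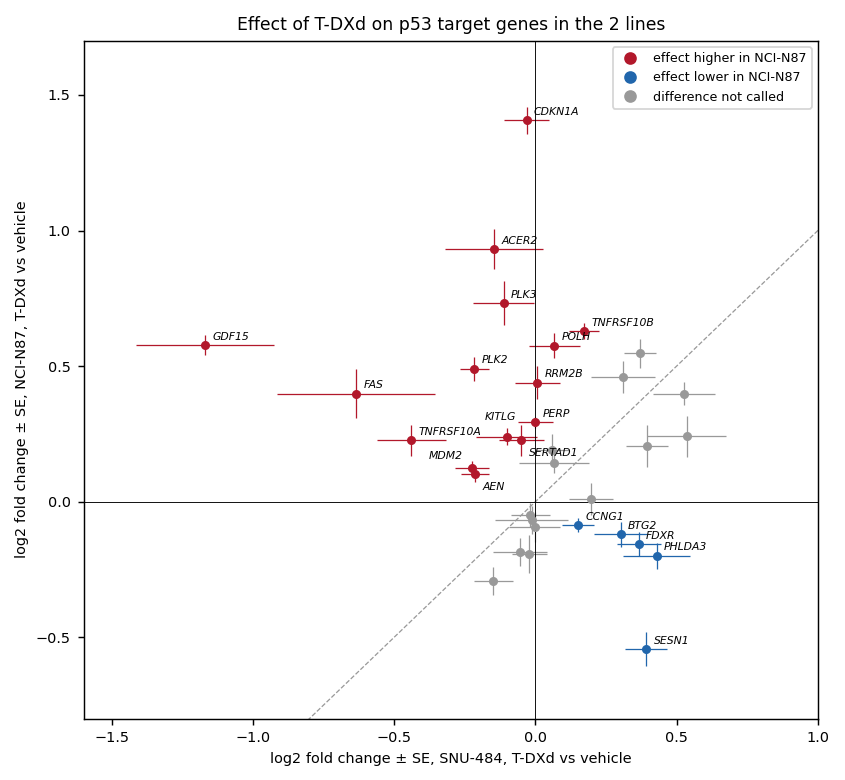
Log2 fold change ± SE with T-DXd in SNU-484 (horizontal) and NCI-N87 (vertical) for the 34 p53 target genes in both tables, coloured by the test of the difference, with the dashed line marking equal change. CDKN1A, ACER2 and PLK3 lie high near the vertical axis at 1.41, 0.93 and 0.73, GDF15 lies at -1.17 on the horizontal axis, and SESN1 is at -0.54 in NCI-N87 and 0.39 in SNU-484.

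With vehicle, the members differed between the lines about as often as all genes did. In the joint fit 13 members (38.2%) were higher in SNU-484 and 16 (47.1%) were higher in NCI-N87, against 43.3% and 41.9% of all genes in the same directions. Scaled jointly, GDF15 stood at 1.25 ± 0.25 CPM in SNU-484 and 67.8 ± 1.69 in NCI-N87 (SD, n = 3), a log2 difference of -5.75 ± 0.10. GADD45A (2.32 against 37.1 CPM), FAS (0.579 against 8.73), PERP (67.9 against 849.6), TP53INP1 (2.57 against 20.6) and ACER2 (1.85 against 8.23) were also lower in SNU-484. TP53I3 went the other way, with 99.5 ± 1.91 CPM in SNU-484 and 8.81 ± 0.354 in NCI-N87, an 11.3-fold difference. PPM1D (1.83 ± 0.06), SERTAD1 (1.54 ± 0.07), PLK2 (1.35 ± 0.05) and KITLG (0.97 ± 0.09) were higher in SNU-484 as well. MDM2 was at 189.1 CPM in SNU-484 and 112.1 in NCI-N87, and CDKN1A at 48.4 and 36.9.

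Per transcript length, in transcripts per 1000000 (TPM) as deposited, the order of levels with vehicle in NCI-N87 ran from PERP (379.9 ± 3.45, SD, n = 3) through GDF15 (105.0 ± 1.61), BAX (96.7 ± 4.40) and CCNG1 (67.9 ± 0.616) down to ACER2 (3.15 ± 0.190) and TRIM22 (0.287 ± 0.129). In SNU-484 it ran from TP53I3 (128.6 ± 2.73), BAX (118.2 ± 5.16) and KITLG (88.4 ± 8.01) down to TP53INP1 (0.944 ± 0.0488) and FAS (0.319 ± 0.0603). BAX, CCNG1 and TRIAP1 were among the 5 highest members of both lines. Neighbours in the middle of the order, such as CDKN1A (32.5 ± 1.15 TPM) and DDB2 (31.8 ± 0.845 TPM) in NCI-N87, lay within their spread of each other.

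**Figure D4:**
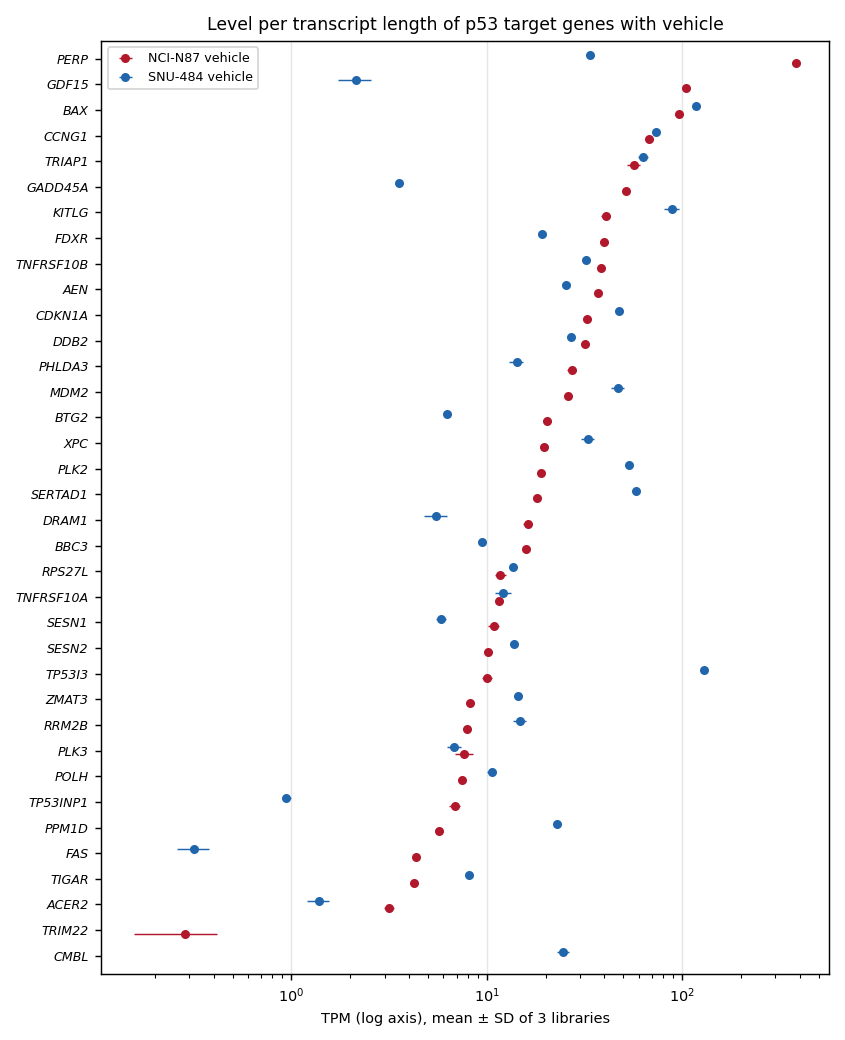
TPM (log axis), mean ± SD of the 3 vehicle libraries, of each p53 target gene in NCI-N87 (red) and SNU-484 (blue), ordered by NCI-N87. PERP is highest in NCI-N87 at 379.9 TPM and TP53I3 in SNU-484 at 128.6 TPM, while FAS reads 4.33 and 0.319 TPM.

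Regulators of the pathway were read beside the members. MDM4, which binds p53 and masks its activating domain, fell in NCI-N87 from 53.02, 52.91 and 52.97 CPM to 35.1, 33.8 and 35.5 (-0.61 ± 0.04, edgeR adjusted p = 2.46e-10) and was at 54.8, 55.5 and 58.1 with trastuzumab. In SNU-484 MDM4 read 47.7, 50.7 and 49.2 CPM with vehicle and 46.2, 45.7 and 42.4 with T-DXd, which did not pass the test (-0.14 ± 0.06, adjusted p = 0.122).

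TP73, the related factor that can bind the same sites, was at 0.11 ± 0.05 in NCI-N87 (edgeR adjusted p = 0.0647) and 0.25 ± 0.06 in SNU-484 (adjusted p = 0.0253). TP63 was analysed in SNU-484 only, where it stood at 0.0578 ± 0.0395 TPM with vehicle. Of 17 regulators, T-DXd raised 7 (41.2%) and lowered 4 (23.5%) in NCI-N87 (median log2 fold change 0.06), beside 29.1% and 29.5% of all genes. It raised 3 (17.6%) and lowered 1 (5.88%) in SNU-484 (median -0.10), beside 11.2% and 9.65% of all genes. Besides MDM4, the changes of largest size in NCI-N87 were those of KAT5, an acetyltransferase of p53 (-0.60 ± 0.04), and CHEK2, a damage kinase (0.38 ± 0.05). In SNU-484, PPP1R13L, which encodes the inhibitor iASPP, rose (0.43 ± 0.08) and USP7, a deubiquitinase of MDM2, fell (-0.27 ± 0.07).

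A second list of p53 targets outside the members was read beside them. With T-DXd in NCI-N87, 18 of 42 (42.9%) were higher and 12 (28.6%) lower (median 0.10), against 29.1% and 29.5% of all genes. In SNU-484, 4 (9.52%) were higher and 4 (9.52%) lower of 42 (median -0.02), against 11.2% and 9.65% of all genes. In NCI-N87, VWCE, an extracellular protein present at below 1 CPM, fell (-1.45 ± 0.49) and TGFA, a ligand of EGFR, rose (1.26 ± 0.04, from 41.1 to 98.2 CPM). The called changes of largest size in SNU-484 were those of STEAP3, a ferrireductase (-1.44 ± 0.11, from 4.66 to 1.71 CPM), TP53AIP1, a mitochondrial death protein (-0.60 ± 0.15), and VWCE (-0.49 ± 0.13).

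Genes that p53 is known to repress through p21 and the DREAM complex were mostly higher with T-DXd in NCI-N87. Of 20 such cell-cycle genes, 17 (85%) rose and 1 (5%) fell against vehicle (median 0.29), beside 29.1% and 29.5% of all genes. With trastuzumab, 7 (35%) were lower and 0 higher (median -0.09), beside 6.09% and 3.65% of all genes. The list had a median of 6.74 log2 CPM in NCI-N87, against 4.09 for all genes. CDK1, the mitotic kinase, rose from 126.1 to 200.2 CPM (0.67 ± 0.04), MYBL2, a transcription factor of the cell cycle, from 177.9 to 268.0 (0.59 ± 0.03) and KIF23, a kinesin of cytokinesis, from 89.9 to 135.0 (0.59 ± 0.03). In SNU-484, 2 (10%) were higher and 6 (30%) lower (median -0.15), beside 11.2% and 9.65% of all genes. There PLK4, the kinase of centriole duplication, fell (-0.36 ± 0.08) and CDK1 rose (0.32 ± 0.06). The difference between lines was called higher in NCI-N87 for 16 of the 20 and lower for 0, beside 22.3% and 19.3% of all genes.

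TNFRSF10B, SESN2 and GDF15 are also targets of ATF4 and its partner CHOP, so a list of other such targets was read beside them. It was split with T-DXd in NCI-N87, 5 (45.5%) higher and 4 (36.4%) lower of 11 (median -0.02), beside 29.1% and 29.5% of all genes. In SNU-484, 3 (25%) of 12 were higher and 1 (8.33%) lower (median 0.01), beside 11.2% and 9.65% of all genes. DDIT3, which encodes CHOP (0.62 ± 0.06), and CHAC1, a glutathione-degrading enzyme (0.61 ± 0.12), rose in NCI-N87 and DDIT4, an inhibitor of mTORC1 that p53 can also raise, fell (-0.58 ± 0.03). In SNU-484, VLDLR, a lipoprotein receptor (1.21 ± 0.27), and DDIT4 (0.85 ± 0.10) rose and TRIB3, a pseudokinase (-0.56 ± 0.11), fell. The level of VLDLR there was low, at 0.26 to 0.45 CPM with vehicle and 0.69 to 1.05 with T-DXd. What part ATF4 has in the values of the members was not tested.

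The calls were also counted by presence of a match to the p53 site. In NCI-N87 with T-DXd, 9 were higher and 3 lower of the 14 members with a match of up to 2 mismatches. Of the 14 searched and tested without one, 8 were higher and 4 lower. In SNU-484 the same sets counted 1 higher and 4 lower, and 5 higher and 0 lower. Of all genes, 29.1% were higher and 29.5% lower in NCI-N87, and 11.2% and 9.65% in SNU-484. The counts of members describe a window around a start, and their difference was not tested.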

How the data were processed

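Poly(A) RNA libraries (TruSeq Stranded mRNA) of 15 cultures were sequenced on a NovaSeq. The submitters' processing notes name Trimmomatic 0.38, HISAT2 2.1.0, StringTie 2.1.3b, DESeq2 and build GRCh38. The authors deposited 1 table per line with whole-number read counts and TPM values per gene and library. Every count is at least 1, so genes at 0 in any library are not in the tables. The FPKM and normalized columns (18 in NCI-N87, 12 in SNU-484) and the authors' comparison columns (fold changes, statistics and p-values) were not used.

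Counts were tested with edgeR 4.0.16 (R 4.3.3): filterByExpr (minimum count 10, total 15), TMM scaling, quasi-likelihood F-tests and Benjamini-Hochberg adjustment over all genes tested. NCI-N87 was fitted on 9 libraries (17394 genes), SNU-484 on 6 (16876) and the joint model on 12 vehicle and T-DXd libraries (14785 shared genes). Levels per library are CPM after TMM scaling, and summed marker levels are CPM of the total count. Comparisons with vehicle or with T-DXd in 1 line share libraries. p-values measure the spread between the cultures of a group. Alternatives were RLE and upper-quartile factors, DESeq2 1.42.0, other filters, a replicate block and leaving out each library.

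The members and the other lists were chosen with earlier results of these data known. Libraries are given for members past 0.7 in size on the log2 scale with T-DXd and for CDKN1A, MDM2, GDF15, BAX, BBC3, FAS, PERP and RPS27L, and up to 3 called genes of largest change for each other list; the values of other members shown by library, such as TNFRSF10B, SESN1 and TP53INP1, were chosen after they were seen. The p53 sites were searched in genome build GRCh38 around a single listed start per gene. That start can lie inside the RefSeq span of the gene, as for CDKN1A. Some genes that the rule for named genes selects are not reported here.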

Additional observations from a re-analysis of the deposited data

Results flagged for a closer look

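In 20 of the 34 p53 target genes in both tables, the effect of T-DXd differed between NCI-N87 and SNU-484 by the interaction test of the joint fit (edgeR adjusted p under 0.05). The difference, as NCI-N87 minus SNU-484 on the log2 scale, was 1.77 for GDF15, 1.46 for CDKN1A, 1.10 for ACER2, 1.05 for FAS, 0.87 for PLK3, 0.73 for PLK2, 0.69 for TNFRSF10A, 0.53 for POLH, 0.48 for TNFRSF10B, 0.45 for RRM2B, 0.37 for MDM2, 0.36 for KITLG, 0.34 for AEN, 0.32 for PERP and 0.30 for SERTAD1. It was -0.91 for SESN1, -0.61 for PHLDA3, -0.50 for FDXR, -0.40 for BTG2 and -0.21 for CCNG1. In SNU-484, GDF15 and FAS were read from at most 96 and 44 counts per library.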

How the results depend on the processing

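Among 3323 values of members under another setting, 0 reversed a call, 109 lost one and 16 gained one. Members lower with trastuzumab numbered 5, and 1 with upper-quartile factors, 3 without a filter on low counts, and 1 to 5 when a library was left out. Those higher and lower with T-DXd in SNU-484 numbered 4 to 11 and 0 to 5 when a library was left out. TNFRSF10B and BTG2 lost their calls in SNU-484 with RLE factors or without a filter, and the differences of SERTAD1 and KITLG between lines with upper-quartile factors. When a library was left out, the difference of SERTAD1 was lost in 6 fits (edgeR adjusted p up to 0.0766). That of KITLG was lost in 5 (edgeR adjusted p up to 0.0811). The causes were not tested. With a replicate block, 3 members were lower with trastuzumab and 10 were higher in SNU-484. Same-numbered libraries correlated at -0.0339 to 0.109 in NCI-N87, over 0.1 in 1 of 9 pairs. No pairing by replicate number was thus seen in that line, though such correlations cannot exclude it. In SNU-484 same-numbered libraries correlated at -0.168 to 0.394, over 0.1 in 2 of 3, while pairs of unlike number ran from -0.501 to 0.321. Whether replicate numbers pair the SNU-484 cultures is undecided, and the main fit used no pairing. Counts of 12 to 44 (FAS in SNU-484) and 15 to 68 (TRIM22 in NCI-N87) limit what could be detected for these genes.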
